A study of Mus musculus with 18 samples.

Results

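The 10 genes described here encode synaptotagmins (*Syt1*, *Syt3*, *Syt4*, *Syt5*, *Syt6*, *Syt7*, *Syt9*, *Syt11*, *Syt12* and *Syt17*), and they were read by symbol from a table of 51912 genes measured in primary cortical astrocyte cultures. They were chosen by measured values, because *Syt3* was among the largest increases with ethanol in the ribosome-bound fraction, so their fold changes and counts in the ethanol contrast of that fraction are a description, printed without p-values, from which nothing is read. All 10 had a single row in the table and passed the filter of at least 10 read pairs over the 18 libraries, as did 24495 genes in all. In translating ribosome affinity purification (TRAP), ribosomes carrying an EGFP-tagged RPL10A protein are pulled down with GFP antibodies. The IP fraction is the RNA that comes down with them, and the input fraction is RNA from the same lysate before the pull-down.

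All dishes came from mice of the Aldh1l1-EGFP/Rpl10a transgenic line JD130Htz on a mixed B6;FVB background, which carry the tagged ribosomal protein under the *Aldh1l1* promoter, so that the controls hold the transgene as well. The cultures were made from equal numbers of male and female cortices at postnatal day 0, grown for 14 days, replated for 6 days and kept without serum for 24 h. Dishes then received serum-free medium alone (control, 0 mM ethanol) or with 50 mM ethanol for 24 h. IP libraries came from 6 control and 6 ethanol dishes, and input libraries from 3 dishes of each treatment, those with replicate numbers 4 to 6. It is not stated whether the dishes were separate cultures, so p-values measure the spread between dishes, which may be technical.

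Synaptotagmins are membrane-trafficking proteins with a pair of C2 domains. In neurons, *Syt1* senses the calcium that enters a nerve ending and, with SNARE proteins, triggers the fusion of synaptic vesicles with the plasma membrane. Other family members have a higher affinity for calcium or do not bind it in the usual way, and they take part in the exocytosis of lysosomes and dense-core vesicles, in endocytosis and in traffic through the Golgi. Astrocytes also release and take up material through vesicles, and several synaptotagmins have been described in them.

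Each library held 74239854 to 132810705 read pairs on genes. Expression is given as CPM, counts of read pairs relative to the size of the library after TMM scaling. Fold changes come from edgeR's quasi-likelihood fit, whose p-values were adjusted over all tested genes by the method of Benjamini and Hochberg, with a threshold of 0.05. All 12 astrocyte markers were above 1 CPM in each group, and their summed level was 1677 to 1764 CPM in input and 2605 to 2820 CPM in IP, where 10 of them were higher and 1 lower. The 12 neuron markers summed to 199.7 to 209.5 CPM in input and 238.9 to 257.5 CPM in IP (6 higher and 3 lower), and *Rbfox3*, *Dcx*, *Nefl*, *Slc17a7* and *Elavl4* were below 1 CPM in each group. Microglia markers summed to 108 to 128 CPM in input and 18.9 to 23.8 CPM in IP, with 11 of 12 lower. Oligodendrocyte lineage markers summed to 259 to 283 and 378 to 424 CPM, with 5 of 12 higher and 4 lower. Of these, *Sox10*, *Mog*, *Mag*, *Mobp* and *Gpr17* were below 1 CPM in each group. Most of the sum came from *Olig1*, *Cnp* and *Olig2*, with means of 170, 122 and 41.1 CPM over the 18 libraries. The 8 fibroblast markers summed to 303 to 311 CPM in input and 157 to 179.7 CPM in IP, and 6 were lower. The endothelial and mural list, with *Cldn5* at 0 read pairs, summed to 907 to 975 CPM with ethanol against 1310 to 1380 CPM in control in the input fraction, and to 1060 to 1258 against 1639 to 1773 CPM in IP. *Acta2*, a gene of this list, had a mean of 1220 CPM over the 18 libraries, and *Pecam1*, *Cdh5*, *Tek* and *Kcnj8* were below 1 CPM in each group. Of its 11 tested genes, 3 were lower with ethanol in input and 4 in IP, and 0 were higher in either. Among all tested genes 7.78% were lower with ethanol in input and 9.48% in IP. In IP vs. input 25.2% of all tested genes were higher and 25.8% lower. The part of the cells of these lists in the results below was not tested. In bulk RNA, a change in the number of cells of a type and a change in RNA per cell cannot be told apart.

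*Syt11* was by far the most abundant synaptotagmin. Per kilobase of exon, its level in IP control was 67.9 ± 0.959 CPM (SD, n = 6), which was 11.9 times that of *Syt17*, the next gene, or 7.03 times when the longest transcript gave the length of each gene. *Syt11* lacks the usual calcium binding of the first C2 domain and restrains endocytosis and vesicle traffic, while *Syt17* has no transmembrane segment and is found at the Golgi. *Syt11* took 77.5% to 82.6% of all read pairs on 17 synaptotagmin genes in each library, and *Syt17* took 6.4% to 8.05%.

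**Figure D1:**
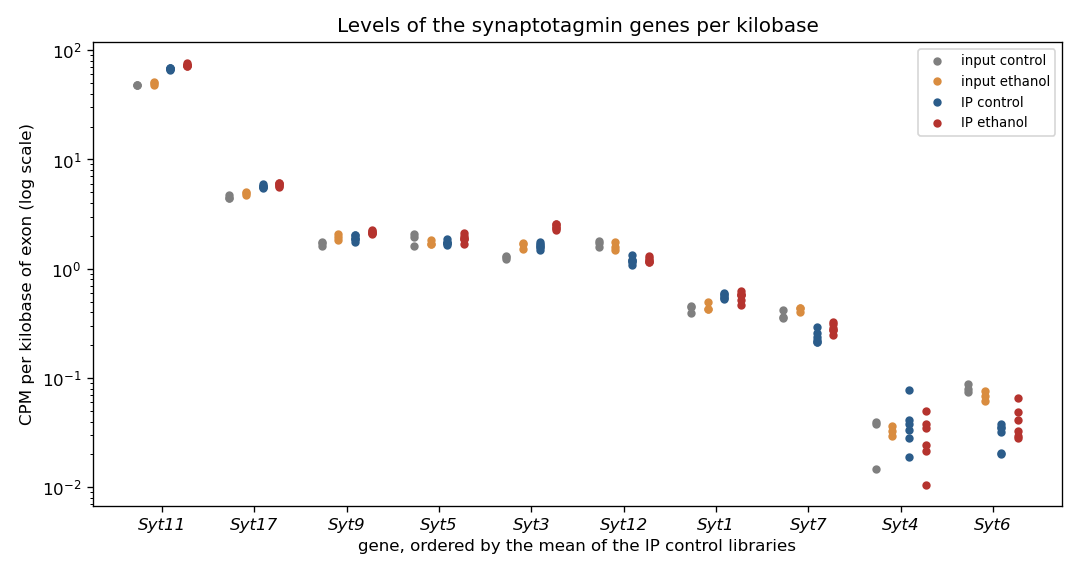
Level of each of the 10 synaptotagmin genes in CPM per kilobase of exon (log scale), ordered by the mean of the IP control libraries. Each point is 1 library, coloured by group. *Syt11* lay above all others in each library, and *Syt4* and *Syt6* lay at the bottom.

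Below *Syt17*, at 5.69 ± 0.171 CPM per kilobase in IP control, came a group of 4 genes with similar levels. *Syt9* had 1.92 ± 0.117, *Syt5* 1.74 ± 0.0745, *Syt3* 1.62 ± 0.0988 and *Syt12* 1.19 ± 0.0813 CPM per kilobase (SD, n = 6). The libraries of *Syt9* and *Syt5* overlapped, as did those of *Syt5* and *Syt3*, so the order within each of these pairs is not beyond the spread. The order also depended on the length used. With the longest transcript the levels were 2.37 for *Syt5*, 1.996 for *Syt9*, 1.925 for *Syt3* and 1.847 CPM per kilobase for *Syt12*. *Syt1*, the calcium sensor of fast synaptic release, had only 0.567 ± 0.0277 CPM per kilobase, 120 times below *Syt11* (71.8 times with the longest transcript). *Syt7*, a sensor of high affinity known from lysosome exocytosis and from slow release, had 0.240 ± 0.0321 CPM per kilobase. *Syt4* and *Syt6* were close to the limit of detection, with 3 to 25 and 9 to 45 read pairs per library.

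In input control *Syt12* lay above *Syt3*, at 1.70 ± 0.100 against 1.27 ± 0.0455 CPM per kilobase (SD, n = 3), with no overlap. That *Syt12* lay below *Syt3* in IP control held only for the unstranded counts and the longest transcripts, since the counts on the annotated strand gave 1.62 for *Syt12* and 1.56 CPM per kilobase for *Syt3* there. *Syt5*, *Syt9* and *Syt12* overlapped with their neighbours in the order, and so did *Syt1* and *Syt7*. These levels count all exons of a gene in its length, and with the longest transcript instead the level of *Syt11* in IP control was 70.3, that of *Syt17* 10.01 and that of *Syt1* 0.980 CPM per kilobase.

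IP vs. input shows which of these mRNAs were over- or under-represented on tagged ribosomes. This comparison did not enter the choice of the genes, although its IP libraries did. Of the 10 genes, 5 were higher in IP (*Syt11*, *Syt3*, *Syt1*, *Syt17* and *Syt9*), 3 were lower (*Syt12*, *Syt7* and *Syt6*) and 2 did not pass the test (*Syt5* and *Syt4*). Among all tested genes 51% passed, 25.2% higher and 25.8% lower. The median log2 fold change of the 10 genes was 0.15, against -0.028 over all tested genes.

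*Syt11* (ENSMUSG00000068923, chromosome 3 from 88744700 to 88775164, minus strand, GRCm38) showed the least spread. In input control its level was 249.1, 249.7 and 252 CPM, and in input ethanol 265, 259 and 251 CPM, for replicates 4, 5 and 6. In IP control the lowest, median and highest libraries had 343, 355 and 357 CPM, and in IP ethanol 373, 381 and 393 CPM. Every IP library lay above every input library. In the edgeR fit the log2 fold change was 0.53 ± 0.0188 (SE), with an adjusted p of 1.91e-37. Within the 6 dishes that were sequenced in both fractions, the log2 ratio of IP to input lay between 0.46 and 0.57.

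*Syt17* (ENSMUSG00000058420, chromosome 7 from 118380717 to 118448222, minus strand) had 23.1, 23.2 and 24.5 CPM in input control and 24.4, 25.8 and 26.1 CPM in input ethanol. In IP control the lowest, median and highest libraries had 28.8, 29.4 and 31.1 CPM, and in IP ethanol 29.0, 30.6 and 31.9 CPM. The fractions did not overlap, and edgeR gave a log2 fold change of 0.30 ± 0.0285 (SE) with an adjusted p of 7.73e-15. IP and input libraries did not overlap for 4 of the 10 genes, *Syt11* and *Syt17* on the high side and *Syt7* and *Syt12* on the low side, against 25% of all tested genes.

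*Syt1* (ENSMUSG00000035864, chromosome 10 from 108497650 to 109010982, minus strand) was also higher in IP. It had 3.25, 3.79 and 3.70 CPM in input control and 4.15, 3.61 and 3.61 CPM in input ethanol. The lowest, median and highest IP libraries had 4.46, 4.70 and 5.00 CPM in control and 3.89, 4.83 and 5.21 CPM in ethanol. Only the lowest IP library in ethanol fell inside the range of input, and the log2 fold change was 0.35 (SE 0.0605, adjusted p = 7.01e-07, edgeR). *Syt9* (ENSMUSG00000062542), a sensor of dense-core vesicle release that parts of the literature name *Syt5*, was higher in IP by 0.16 on the log2 scale (SE 0.0447, adjusted p = 0.00165), with overlapping fractions. In the ethanol dishes alone the difference of *Syt9* was 0.15 and its adjusted p was 0.0508.

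*Syt3* was higher in IP than in input in each of the 6 dishes, by 0.22 to 0.64 on the log2 scale, and the fit over 18 libraries gave 0.46 (SE 0.0537, adjusted p = 8.32e-12, edgeR). The IP libraries of both treatments entered the choice of the genes and are part of this fit. In the control dishes alone, the log2 fold change was 0.34 with an adjusted p of 0.000126 (edgeR). That fit leaves out the ethanol IP libraries but keeps the control ones, so it is not free of the choice.

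A group of 3 genes was lower in IP. *Syt7* (ENSMUSG00000024743, chromosome 19 from 10389090 to 10453180, plus strand) had 2.65, 2.73 and 3.17 CPM in input control and 3.31, 2.99 and 3.28 CPM in input ethanol. Its lowest, median and highest IP libraries had 1.59, 1.72 and 2.21 CPM in control and 1.84, 2.11 and 2.44 CPM in ethanol. All IP libraries lay below all input libraries, and the log2 fold change was -0.62 (SE 0.0761, adjusted p = 6.84e-11, edgeR). *Syt6*, a sensor known from the acrosome reaction of sperm, was lower by 1.08 on the log2 scale (fold change -1.08, SE 0.208, adjusted p = 6.29e-06), but it had 31 to 45 read pairs per input library and 9 to 32 per IP library. On average 84.2% of its stranded read pairs lay on its own strand, and its exons share 505 bases with *Atg4a-ps* on the other strand. With the pairs of its own strand alone the log2 fold change was -1.10.

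**Figure D2:**
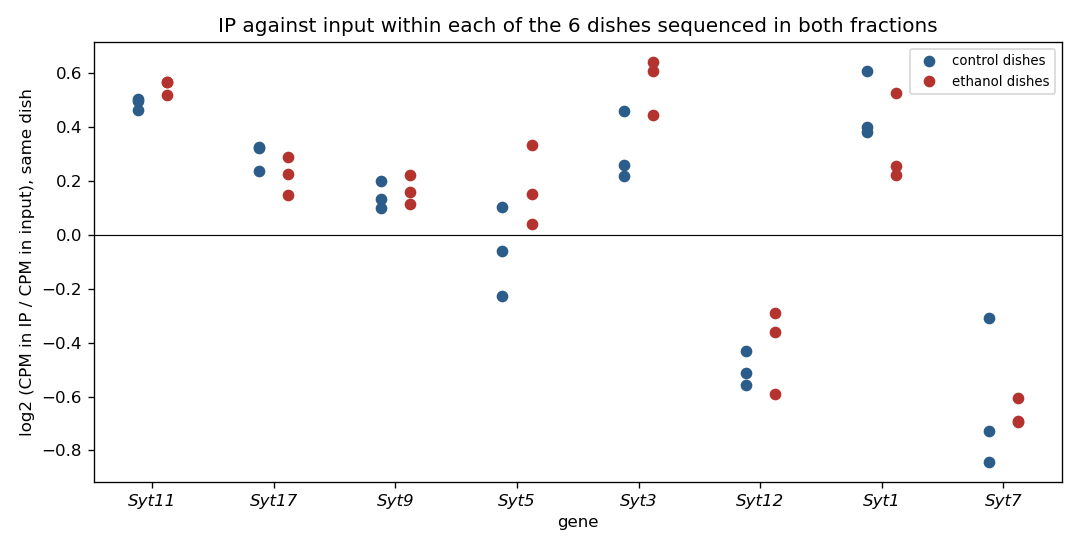
Log2 ratio of CPM in IP to CPM in input in each of the 6 dishes sequenced in both fractions, for the 8 synaptotagmin genes above 1 CPM. Each point is 1 dish, control or ethanol. *Syt11*, *Syt17*, *Syt9*, *Syt3* and *Syt1* lay above 0 in all 6 dishes, *Syt12* and *Syt7* below 0 in all 6, and *Syt5* on both sides.

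*Syt12* (ENSMUSG00000049303, chromosome 19 from 4445908 to 4477447, minus strand), which does not bind calcium and is a phosphorylated vesicle protein in neurons, had 8.83, 9.92 and 9.56 CPM in input control and 8.20, 9.66 and 8.85 CPM in input ethanol. The lowest, median and highest IP libraries had 6.00, 6.63 and 7.36 CPM in control and 6.41, 6.59 and 7.23 CPM in ethanol. IP lay below input in all libraries, and edgeR gave a log2 fold change of -0.46 ± 0.0463 (SE) with an adjusted p of 3.6e-14.

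The reads of *Syt12* needed a closer look, since the tested counts ignored strand. The libraries were stranded, and on average 66.5% of the stranded read pairs in *Syt12* exons lay on its own strand (60.3% to 70.8% per library), whereas for all other members but *Syt6* the average was 98.6% or more. Its exons share 950 bases with *A930001C03Rik*, a transcript on the opposite strand. Unstranded counting set aside pairs that fell on both genes, which is why the counts on the *Syt12* strand alone were higher. These were 12.8 ± 1.03 CPM in input control, 11.9 ± 0.479 in input ethanol (n = 3 each), 9.31 ± 0.595 in IP control and 9.31 ± 0.516 in IP ethanol (SD, n = 6 each). On this strand the log2 fold change of IP vs. input was -0.41 (adjusted p = 1.91e-13, edgeR), so the difference between fractions was present without the reads of the other strand. Exons of *Syt4* and *Syt7* also share 566 and 384 bases with genes on the opposite strand. The IP vs. input value of *Syt7* on its own strand was -0.611.

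**Figure D3:**
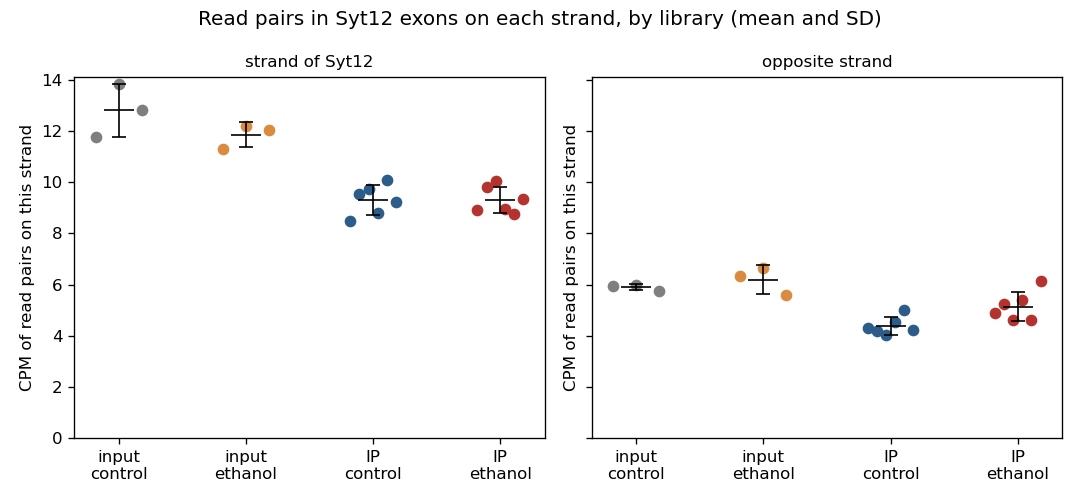
CPM of read pairs in *Syt12* exons on its own strand (left) and on the opposite strand (right). Points are libraries, and bars give the mean and SD of each group (n = 3 for input, n = 6 for IP). The left panel shows IP below input with no overlap, and the right panel shows 4.02 to 6.66 CPM of opposite-strand signal in every group.

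*Syt5* (ENSMUSG00000004961), a calcium sensor of dense-core vesicles and endosomes, had 3.84 to 4.92 CPM in input and 3.90 to 5.07 CPM in IP, and its log2 fold change in the edgeR fit, 0.017 ± 0.0602 (SE), did not pass the test (adjusted p = 0.846). IP was above input in 4 dishes and below it in 2. *Syt4* (ENSMUSG00000024261, chromosome 18), an activity-induced synaptotagmin of dense-core vesicles, had a log2 fold change of 0.13 with an SE of 0.322, so at this depth a difference was not detectable. With the pairs of its own strand alone, the value was 0.009.

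Ethanol in input was compared over 3 control and 3 ethanol libraries that did not enter the choice of the genes, although the same dishes also gave IP replicates 4 to 6. *Syt3* alone passed the test. *Syt3* is a calcium sensor of high affinity that in neurons takes part in the internalisation of AMPA receptors and in vesicle replenishment. Among all tested genes 15% passed, 7.21% higher and 7.78% lower with ethanol, and the median log2 fold change was 0.082 for the 10 genes and -0.001 for all genes.

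*Syt3* (ENSMUSG00000030731, chromosome 7 from 44384102 to 44400187, plus strand) had 4.08, 3.99 and 3.81 CPM in input control and 5.37, 5.24 and 4.71 CPM in input ethanol. All ethanol libraries lay above all controls. The mean was 5.11 ± 0.349 against 3.96 ± 0.142 CPM (SD, n = 3), a 1.29-fold increase (log2 fold change 0.36, SE 0.0972, 95% interval 0.17 to 0.56, adjusted p = 0.0023, edgeR). With 1 input library left out at a time, the log2 fold change lay between 0.33 and 0.41 and *Syt3* passed the test each time. Of the 12 neuron markers, 4 were also higher with ethanol in input and 2 were lower, beside 7.21% and 7.78% of all tested genes. *Syn1* (log2 fold change 0.36, adjusted p = 1.42e-10), *Syp* (0.43, adjusted p = 0.002), *Map2* (0.12, adjusted p = 0.00199) and *Slc17a7* (0.98, adjusted p = 0.0229, with a mean of 0.449 CPM) were the higher ones, and *Gap43* (-0.28, adjusted p = 1.24e-06) and *Stmn2* (-0.13, adjusted p = 2.25e-05, edgeR for each) the lower ones. Their summed level was 205.3 to 207.8 CPM in control and 199.7 to 209.5 CPM in ethanol. The neuron list was not alone in this. Of the 12 astrocyte markers, 5 were higher and 4 lower with ethanol in input. For the 12 oligodendrocyte lineage markers these counts were 3 and 1, and for the 12 microglia markers 2 and 0. They were 0 and 3 for the 11 endothelial and mural genes, and 0 and 0 for the 8 fibroblast markers. The part of any of these lists in the change of *Syt3* was not tested.

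**Figure D4:**
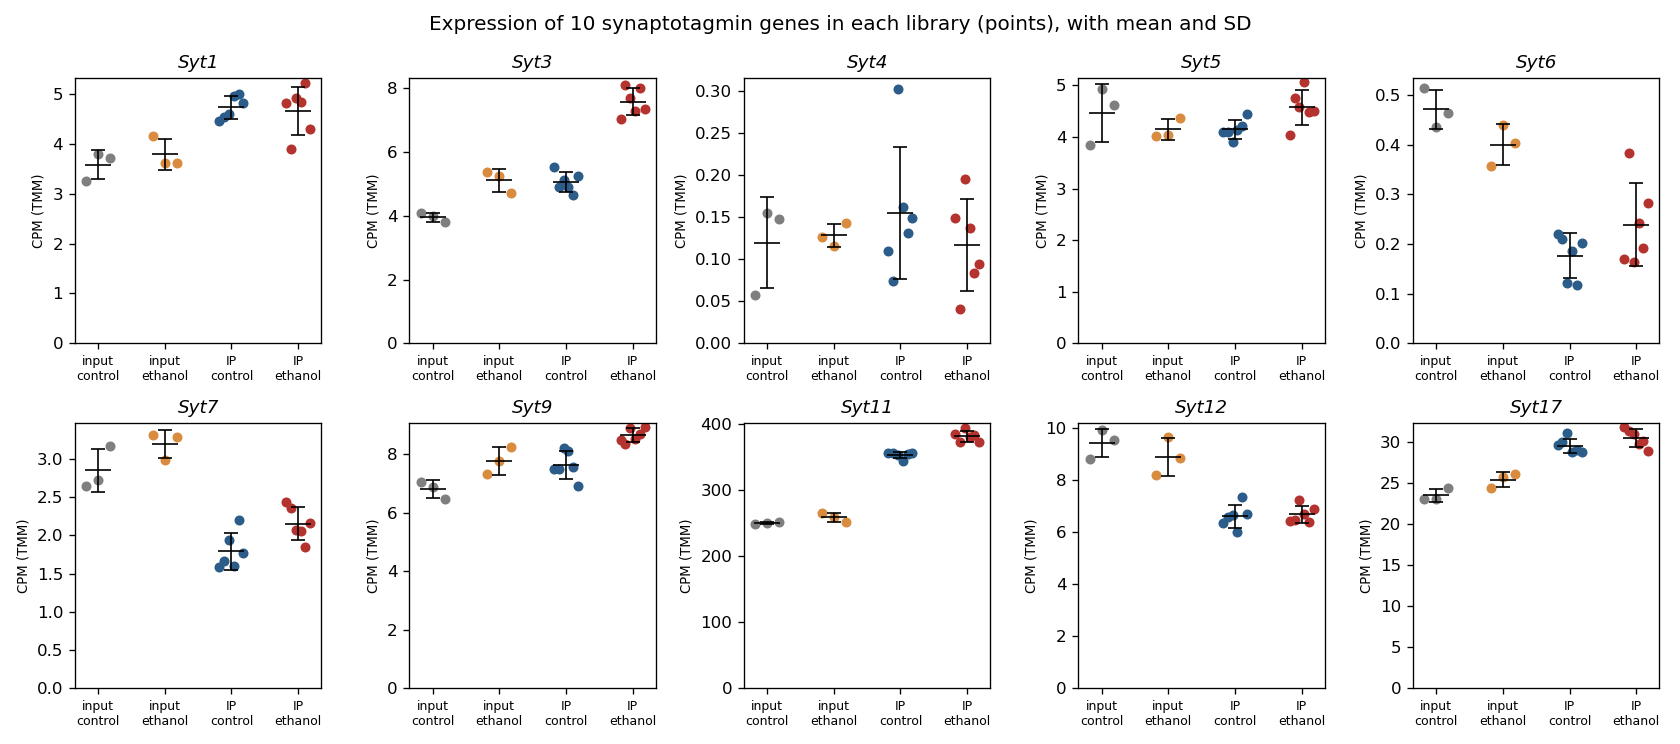
CPM of the 10 synaptotagmin genes in each library, with a linear axis from 0 for each gene. Points are libraries, and bars give the mean and SD of input control and input ethanol (n = 3 each) and IP control and IP ethanol (n = 6 each). *Syt3* was higher with ethanol in both fractions, without overlap within a fraction. Its difference in IP is the one that chose the genes and is a description only.

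*Syt9* also did not overlap between treatments in input, with 7.05, 6.89 and 6.46 CPM in control and 7.30, 7.76 and 8.24 CPM in ethanol, but its log2 fold change in the edgeR fit, 0.19 ± 0.0787 (SE), did not pass (adjusted p = 0.0982). Thus 2 of the 10 genes, *Syt3* and *Syt9*, had no overlap, against 27.1% of all tested genes. *Syt17* stood at 0.11 ± 0.0447 on the log2 scale (SE), with an adjusted p of 0.0908. The others had values between -0.24 for *Syt6* and 0.16 for *Syt7*, with adjusted p-values from 0.261 for *Syt11* to 0.965 for *Syt4*. The interval of *Syt11* ran from -0.004 to 0.086, whereas that of *Syt4* ran from -1.04 to 1.22 and leaves its response unresolved. On its own strand the value of *Syt4* was 0.290.

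In IP, the fraction that chose the genes, *Syt3* had 4.65, 5.02 and 5.53 CPM in control and 7.03, 7.52 and 8.09 CPM in ethanol (lowest, median and highest of 6 libraries). The groups were far apart, and the mean was 7.58 ± 0.423 against 5.06 ± 0.308 CPM, which is 1.5-fold or 0.59 ± 0.0577 (SE) on the log2 scale. It was 0.61 in the dishes that also gave input libraries and 0.55 in the other dishes. *Syt3* stood at rank 1834 of 24495 tested genes by log2 fold change when no minimum level was set.

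*Syt11* and *Syt9* also had no overlap between treatments in IP. *Syt11* was higher with ethanol by 0.12 on the log2 scale (SE 0.0225). *Syt9* had 6.92, 7.52 and 8.19 CPM in control and 8.34, 8.59 and 8.92 CPM in ethanol, which is 0.19 ± 0.0511 (SE) on the log2 scale. With *Syt3*, these were 3 genes without overlap, beside 9.96% of all tested genes, in the contrast that chose them. In IP replicates 1 to 3 alone the value of *Syt9* was 0.16 and no longer past the threshold of the fit.

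*Syt7* differed by 0.27 ± 0.0973 on the log2 scale (SE) in IP, with overlapping groups. With it, 4 of the 10 genes lay past the threshold of the fit, all higher, a count that includes *Syt3* and is no test of the set. Of all tested genes 21.4% lay past it (11.9% higher and 9.48% lower). *Syt7* was no longer past it without IP control replicate 1, 2, 4 or 6 or IP ethanol replicate 1, 2 or 6, and its value was 0.12 in IP replicates 4 to 6 and 0.22 on its own strand. The other members had log2 fold changes of 0.15 for *Syt5*, 0.43 for *Syt6*, 0.053 for *Syt17*, 0.025 for *Syt12*, -0.005 for *Syt1* and -0.36 for *Syt4*. On its own strand *Syt4* was at -0.195. The median over the 10 genes was 0.14, against 0.005 over all genes.

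**Figure D5:**
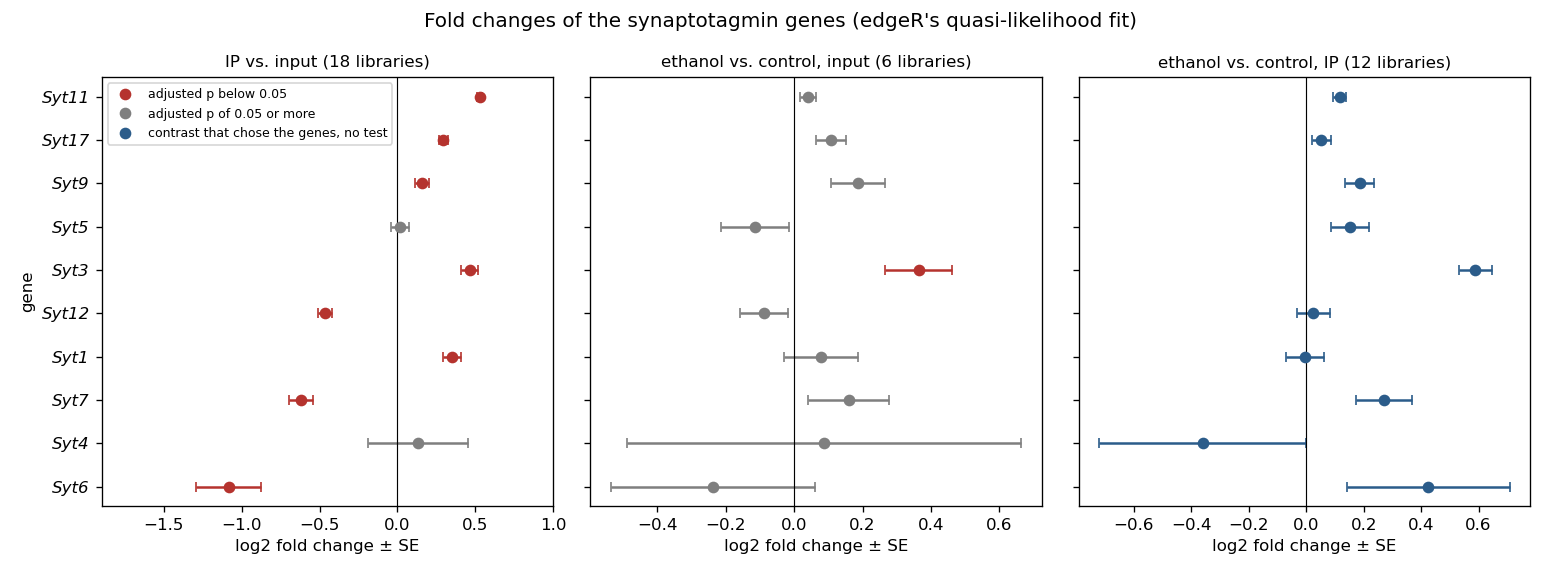
Log2 fold change (points) and SE (bars) of the 10 synaptotagmin genes in IP vs. input, in ethanol vs. control in input and in ethanol vs. control in IP, each with its own axis. Red marks an adjusted p below 0.05 and grey a higher one. The right panel is the contrast that chose the genes and is drawn in blue without a test. *Syt3* lay to the right of 0 in all 3 panels.

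How far the ethanol effect differed between IP and input rests on the IP contrast too, so it is a description as well. It was 0.21 on the log2 scale for *Syt3* (SE 0.105) and 0.25 for *Syt5* (SE 0.117), with IP minus input as the sign. For *Syt5* the values had opposite signs, -0.11 in input and 0.15 in IP, but neither was past the threshold and the treatments overlapped in both fractions. *Syt9* had a difference of -0.012 (SE 0.0895) and *Syt11* of 0.065 (SE 0.0358). With edgeR 0 of the 10 genes passed, as did 0% of all tested genes. At an unadjusted p below 0.05 there were 2 of the 10, *Syt3* among them, and 1459 of the 24495 tested genes, and with DESeq2 0 of the 10 passed.

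Promoter sequence is shown for *Syt3* and *Syt9*, the members that had no overlap between treatments in input, as had 27.1% of all tested genes. RefSeq windows of the 250 bases before a start (GRCm38.p6) were at hand for 5 of the 10 genes (*Syt1*, *Syt3*, *Syt6*, *Syt9* and *Syt11*), and the lines below give the bases of the window that precede the first exon in GENCODE M21. *Syt3* is chr7:44383876-44384101 and *Syt9* is chr7:107370540-107370727, both on the plus strand and written 5′ to 3′. Capitals mark the GC box GGGCGG on either strand.
Syt3: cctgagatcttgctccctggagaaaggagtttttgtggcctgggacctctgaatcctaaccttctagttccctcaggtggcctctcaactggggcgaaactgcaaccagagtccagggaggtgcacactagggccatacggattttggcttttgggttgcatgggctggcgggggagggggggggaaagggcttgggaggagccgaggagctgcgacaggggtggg
Syt9: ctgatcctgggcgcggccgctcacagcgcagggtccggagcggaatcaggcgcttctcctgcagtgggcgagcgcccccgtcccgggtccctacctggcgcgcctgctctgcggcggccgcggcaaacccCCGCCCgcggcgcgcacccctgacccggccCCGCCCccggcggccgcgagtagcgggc

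The pair of windows looked unlike each other. The 250 bases of *Syt9* were 80.4% G and C with 40 CpG sites, and those of *Syt3* were 62.4% G and C with 8 CpG sites, against a median of 52.4% and 6 CpG sites over 32851 windows. The *Syt9* window held 3 GC boxes, the last of which runs into the first exon, and the *Syt3* window held 0, while 32.7% of all windows hold at least 1. The letters CACGTG (6.02% of all windows), TGACG (17.8%), CCAAT (33.8%), TATAAA (12.4%), TTCAGCACC (0.301%) and GAANNTTC (6.69%) were searched on both strands and were in neither window. The RefSeq window of *Syt11* lies wholly within exons of other *Syt11* transcripts and is not shown.

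The 7 synaptotagmins outside the list gave a background of the same family. In IP vs. input 2 were higher and 1 lower, beside 25.2% and 25.8% of all tested genes. *Syt14*, a synaptotagmin without calcium binding, was higher by 0.28 ± 0.0384 on the log2 scale (SE, adjusted p = 1.49e-09 in the edgeR fit) and *Syt15* by 0.59 (adjusted p = 0.000491), while *Syt2*, the paralogue of *Syt1*, had a log2 fold change of -0.92 (adjusted p = 0.0415) from 1 to 14 read pairs per library. *Syt8*, *Syt10*, *Syt13* and *Syt16* did not pass.

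With ethanol in input only *Syt13* of these 7 passed, beside 15% of all tested genes, and it fell. It had 2.18, 2.12 and 2.08 CPM in control and 1.47, 1.51 and 1.30 CPM in ethanol, without overlap. Its log2 fold change was -0.58 (SE 0.152, adjusted p = 0.0019, edgeR), opposite in sign to *Syt3*. In IP its mean was 2.13 ± 0.272 CPM in control and 1.79 ± 0.202 CPM with ethanol (SD, n = 6). There 0 of the 7 passed, beside 21.4% of all tested genes.

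Proteins that act with or beside synaptotagmins were taken from lists. Of 24 SNARE genes, which encode the fusion machinery itself, 5 were higher and 10 lower in IP than in input, and 3 were higher and 2 lower with ethanol in input. *Snap25*, the neuronal SNARE partner of *Syt1*, was below 1 CPM in each group. Of 20 regulators of fusion, 11 were higher and 5 lower in IP, and 1 was higher and 3 lower with ethanol in input. Of 11 tested genes with related C2 domains, 3 were higher and 5 lower in IP, and 0 were higher and 1 lower with ethanol in input. Among all tested genes, 25.2% were higher and 25.8% lower in IP than in input. With ethanol in input, 7.21% of all tested genes were higher and 7.78% lower.

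By size, the list genes highest in IP included *Cplx2*, a complexin that clamps and promotes SNARE fusion (log2 fold change 0.85, adjusted p = 1.27e-46), and *Cadps*, a priming factor of dense-core vesicles (0.82, adjusted p = 2.37e-24, edgeR for each). The lowest were the extended synaptotagmins *Esyt3* (-1.98, adjusted p = 1.65e-27) and *Esyt1* (-0.51, adjusted p = 1.42e-28), which tether the endoplasmic reticulum to the plasma membrane, and the priming factor *Unc13c* (-0.82, adjusted p = 2.18e-22). With ethanol in input *Cadps2*, the paralogue of *Cadps*, rose by 0.39 on the log2 scale (adjusted p = 2.23e-09), *Vamp1*, a vesicle SNARE, by 0.19 (adjusted p = 0.000596) and *Stx16*, a Golgi syntaxin, by 0.14 (adjusted p = 0.000326). Beside *Syt13*, the largest of the decreases past the threshold were those of *Cplx2* (-0.21, adjusted p = 3.48e-11) and *Snap47* (-0.12, adjusted p = 1.69e-05).

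The genes whose log2 CPM followed *Syt3* most closely were named as a description, over 11065 genes whose mean reached 5 CPM. Over the 18 libraries, which share the split into fractions and treatments, they were *Usp22* (Pearson's r = 0.972), *Txnip* (0.969), *Slc3a2* (0.967), *Syn1* (0.966) and *Mapk4* (0.960), beside a median absolute r of 0.521. *Syn1* is also on the list of neuron markers. Over the 12 IP libraries they were *Txnip* (0.984), *Bcan* (0.980), *Fut11* (0.980), *Nrxn2* (0.978) and *Pitpnm2* (0.977), and the median absolute r of all these genes was 0.551. *Syt11* followed *Pbxip1* and *Ndrg2* (0.995 each) and *Chst11*, *Sh3pxd2b* and *Bcr* (0.994 each) over the 18 libraries, where the median absolute r of all these genes with *Syt11* was 0.756. Over the 12 IP libraries the closest included *Ppp3ca* (0.968), *Smarcc2* (0.967), *Fbxo42* (0.961) and *Rhbdl3* (0.959), and the genes named for *Syt3* and for *Syt11* had none in common.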

How the data were processed

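Stranded libraries of rRNA-depleted total RNA were sequenced as read pairs. The authors used Trimmomatic for trimming and STAR for alignment to GRCm38, and they deposited raw counts of read pairs per gene for each library and as a table of 18 libraries. Versions are not given in the sources used here. The table, which ignores strand, equalled the single files in all genes. Pairs on overlapping genes of either strand (5.5% on average) and pairs mapped to several places are not counted, and stranded counts were used as an alternative. Precision is set by the spread between dishes and, for *Syt4* and *Syt6*, by few read pairs.

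Genes with at least 10 pairs over all libraries were tested with edgeR 4.0.16 (TMM, estimateDisp, robust glmQLFit, glmQLFTest) in R 4.3.3, and DESeq2 1.42.0 was the alternative. IP vs. input used 18 libraries and adjusted for treatment, the ethanol effect was fitted in each fraction by itself (6 input, 12 IP), and its difference between fractions was an interaction over 18 libraries. The SE is the absolute log2 fold change divided by the square root of F. Positions are those of GENCODE M21.

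The 10 genes, the gene lists and the motifs were chosen with earlier results of these data known. Named beside the 10 are the other synaptotagmins, the 3 largest changes in each direction among list genes past the threshold whose mean reached 1 CPM, and the 5 genes most correlated with *Syt3* and with *Syt11*. The results of some genes this rule covers are not given. Input and IP libraries of one replicate number and treatment come from the same dish, and their deviations from the group means correlated at 0.0191 to 0.153. Whether a number shared by a control and an ethanol dish links them is not stated. Alternatives were other normalizations and filters, DESeq2, stranded counts, blocks, subsets of dishes and each library left out.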

Additional observations from a re-analysis of the deposited data

Results flagged for a closer look

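*Syt11* in IP control had 1 library apart from the others. Replicate 4 had 343 CPM, while the nearest library had 354 CPM and the highest 357 CPM, a gap that took up most of the range of the 6 libraries. Of 20 sets of 6 libraries examined in this way, about 1 in 20 would stand out by chance, and this was the only one. The library lay below all IP ethanol libraries and above all input libraries, as the other IP control libraries did.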

How the results depend on the processing

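The number of the 10 synaptotagmins past the threshold was 8 in IP vs. input under each tool, normalization and filter tried, 7 in the ethanol dishes alone, 1 for ethanol in input and 0 for the interaction. With each library left out in turn it was 8 to 8, 1 to 2 and 0 to 0 in these comparisons, and 3 to 4 for ethanol in IP, the contrast that chose the genes, where the counts are a description (4 with DESeq2 and 3 with stranded counts, with replicates 1 to 3 and with replicates 4 to 6). *Syt17* passed for ethanol in input only without input ethanol replicate 4 (log2 fold change 0.14, adjusted p = 0.0348). With the dish as a replicate block, IP vs. input gave 8 and the interaction 0, and with the replicate number as a replicate block ethanol in input gave 1 and ethanol in IP 4, so the paired fits changed no call. Same-numbered control and ethanol libraries correlated at 0.0195 to 0.0657 in input and -0.104 to 0.221 in IP. Libraries known to share a dish correlated at only 0.0191 to 0.153. These correlations therefore cannot decide whether the numbers pair control with ethanol dishes.

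The reversed signs were all in values that were not past the threshold in the main fit. In IP vs. input *Syt5* was -0.034 with total counts. It was -0.12 in the control dishes, against 0.145 in the ethanol dishes. *Syt4*, with few reads, was -0.10 in the ethanol dishes. For ethanol in IP *Syt12* was -0.001 on its own strand and -0.001 in replicates 4 to 6, and *Syt1* was 0.017 in replicates 1 to 3. In the interaction *Syt9* was 0.001 with filterByExpr and 0.042 with the dish block, and *Syt7* was -0.027 with that block. With each library left out, *Syt5* ran from -0.016 to 0.070 and *Syt4* from -0.037 to 0.21 in IP vs. input, *Syt4* from -0.24 to 0.32 for ethanol in input, *Syt1* from -0.038 to 0.031 and *Syt12* from -0.009 to 0.057 for ethanol in IP, and *Syt9* from -0.061 to 0.032 in the interaction. The cause was not tested.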
